A study of Mus musculus with 14 samples.

Results

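The 10 genes described here are heme oxygenase 1 (Hmox1), 7 further genes known as targets of the antioxidant factor NRF2 or as oxidative stress genes (Nqo1, Gclc, Gclm, Slc7a11, Txnrd1, Srxn1 and Osgin1), and the transcription factor genes Nfe2l2, which encodes NRF2, and Bach1. They were found by symbol among the 39179 Ensembl gene IDs of the count tables, and all 10 were among the 12630 genes that passed the filter on low counts. The genes were chosen by earlier results of these data. The higher level of Hmox1 in wt cells at 27h was among these, and which other values were used is not recorded with the list. As a precaution, values of Hmox1 and Osgin1 are given as a description in every comparison, with no test, as are those of all 10 genes at 27h, in cko against wt and in the differences between the 6h responses. The comparisons that are tested may also have been known when the list was made.

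The samples were follicular B cells from mouse spleen, isolated with a magnetic kit for marginal zone and follicular B cells. All mice were of strain C57BL/6, and no age is stated in the labels. Cells of relb-/-crel-/- mice (dbko, lacking the NF-kB subunits RelB and c-Rel) and of crel-/- mice (cko, lacking c-Rel) were sequenced before culture (0h) and after 6h with 50 ng/ml BAFF, the B cell survival ligand. Wild type cells (wt) were sequenced at 0h, 6h and 27h. Each of the 7 groups had 2 poly-A RNA-seq libraries, and replicate 1 of every group was run on lane 7 and replicate 2 on lane 8. Since no label ties the paired libraries of a group to separate mice, the p-values measure the spread between these libraries, which may be technical. No culture without BAFF was analysed here, so BAFF and time in culture cannot be told apart.

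NRF2 is a transcription factor that is held in the cytoplasm and sent for degradation by KEAP1. When oxidants or electrophiles modify KEAP1, NRF2 enters the nucleus, pairs with a small MAF protein and binds antioxidant response elements near genes for glutathione synthesis, thioredoxin reduction and quinone detoxification. BACH1 pairs with the same small MAF proteins, binds overlapping elements and represses Hmox1 above all, and it leaves the DNA when it binds heme. Hmox1 itself breaks heme down to biliverdin, carbon monoxide and iron, and in the spleen it is most abundant in red pulp macrophages, which recycle the heme of old red cells. BACH2, the relative of BACH1 in B cells, restrains plasma cell differentiation.

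Libraries held between 10497802 and 11888765 counts assigned to genes. Levels below are CPM, read counts scaled to library size by the TMM method, log2 fold changes are those of edgeR's quasi-likelihood fit with the standard error (SE), and a gene was called at a Benjamini-Hochberg adjusted p under 0.05 over the genes tested. Rel, the gene for c-Rel, was at 40.0 to 61.4 CPM in dbko libraries and 52.4 to 111 CPM in cko libraries, against 197 to 683 CPM in wt libraries. Relb was at 53.0 and 65.6 CPM in dbko libraries at 0h, against 115 and 117 CPM in wt libraries. At 6h it was at 67.8 and 88.4 CPM in dbko, against 150 and 164 CPM in wt. Wt libraries at 27h had 63.9 and 66.4 CPM of Relb, and cko libraries had 159 to 195 CPM. The 9 matched markers of follicular B cells, Cd79a among them, were detected in every library and summed to between 11000 and 19800 CPM. Markers of other spleen cell types differed between groups. The 21 red pulp macrophage and monocyte markers (22 listed, Ctss set aside because B cells also express it) summed to 409 and 221 CPM in uncultured dbko cells, 67.8 and 61.2 CPM in uncultured cko cells and 277 and 274 CPM in uncultured wt cells. After 6h the sums were 456 and 144 CPM in dbko, 38.0 and 38.2 CPM in cko and 60.2 and 60.8 CPM in wt, and after 27h in wt 110 and 115 CPM. No marker of that list was at 0 in dbko or wt libraries at 0h, whereas Cd163 was at 0 in both wt libraries at 27h and Fcgr1 in both cko libraries at 0h. The 17 matched erythroid markers summed to 1760 and 881 CPM in dbko at 0h, to 292 and 127 CPM in dbko after 6h, and in the other libraries to between 3.99 and 103 CPM. In bulk RNA, fewer cells of a type and less RNA per cell cannot be told apart. The 27 markers of other spleen cells, of T, NK, dendritic, neutrophil and stromal type, summed to between 149 and 481 CPM, and 4 to 14 of them were at 0 in each library. Of 13 tested, 5 were called higher in dbko than in wt cells at 0h, where 7.1% of all genes tested were. At 6h 6 were called higher and 2 lower, where 15.2% and 11.5% of all genes tested were.

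Per kilobase of exon, Hmox1 in wt cells at 27h had the highest mean level of any member in any group, at 266 CPM per kb. It was followed by Hmox1 in dbko cells at 6h at 174 and Gclc in dbko cells at 6h at 105 CPM per kb. Before culture in wt cells the most abundant member was Nfe2l2 at 63.4 CPM per kb, followed by Hmox1 at 29.2 and Bach1 at 20.4. Srxn1 at 0.0356 and Slc7a11 at 0.00348 CPM per kb were barely detected there.

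**Figure D1:**
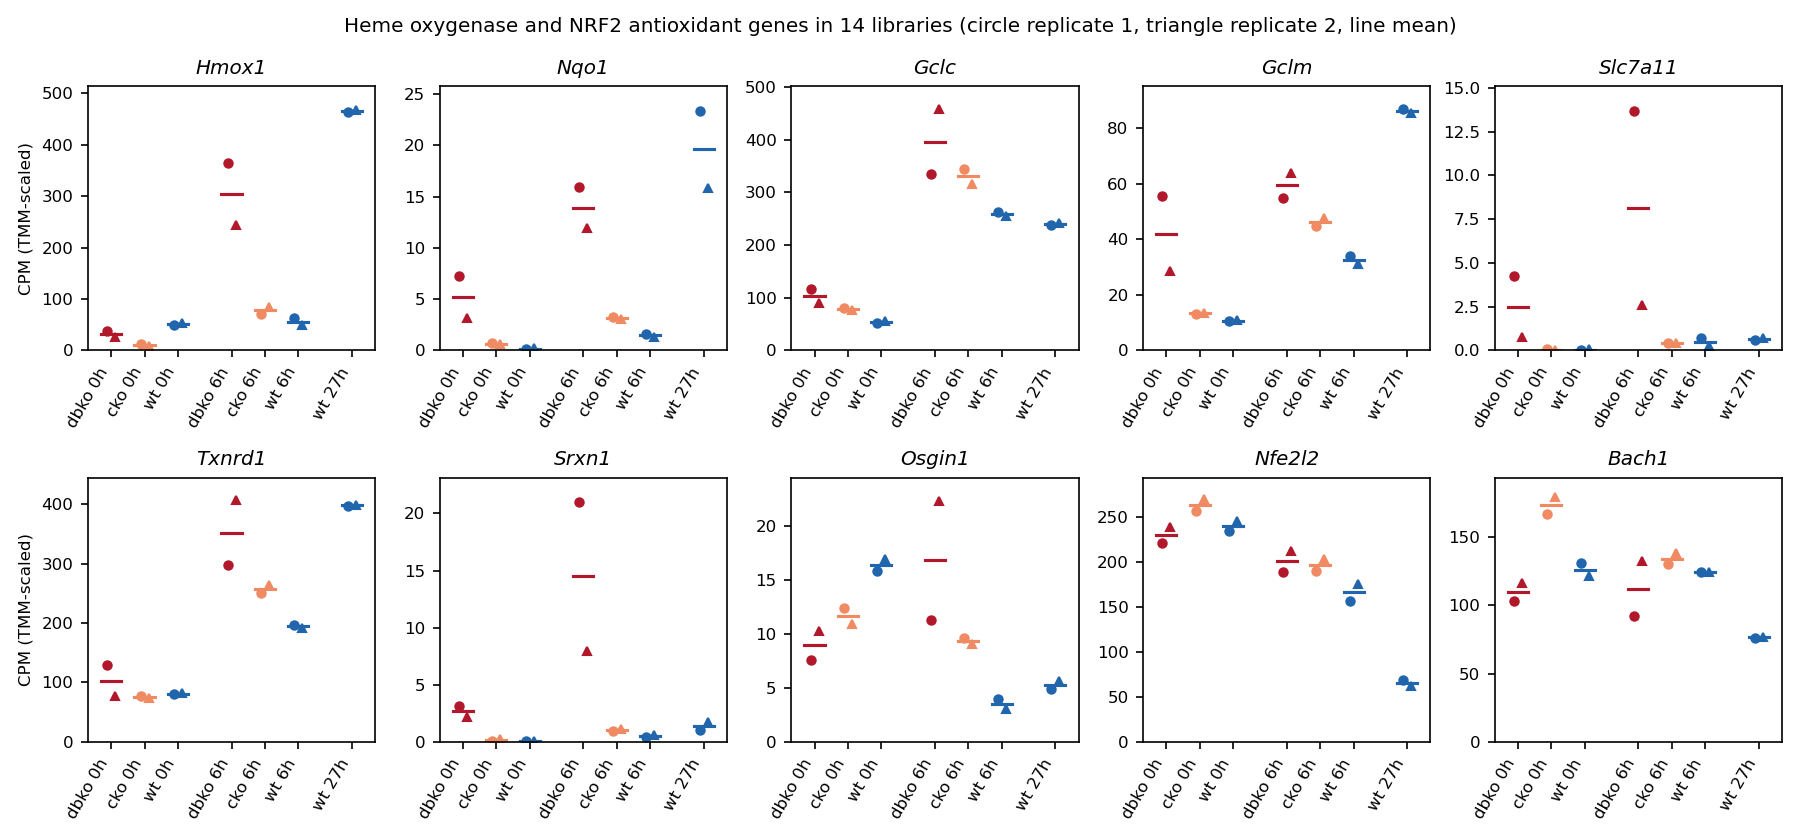
Level of each of the 10 genes (CPM, TMM-scaled, linear axes from 0) in the 14 libraries by group, with circles for replicate 1, triangles for replicate 2 and lines for the mean. Hmox1 stood at 464 and 467 CPM in wt cells at 27h and at 365 and 244 CPM in dbko cells at 6h, above its level in the libraries of the other 5 groups.

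The heme-degrading enzyme gene Hmox1 (ENSMUSG00000005413, chromosome 8, 75093621 to 75100589, plus strand, GRCm38) was higher at 6h than at 0h in both knockouts and overlapped between these times in wt cells. In dbko cells it was at 365 and 244 CPM at 6h, against 37.8 and 25.9 CPM at 0h. In cko cells it was at 71.0 and 85.0 CPM at 6h, against 12.1 and 9.15 CPM at 0h. In neither knockout did the times overlap, and the lowest dbko library at 6h was above both cko libraries at 6h. The log2 fold change over 6h was 3.26 ± 0.23 (SE) in dbko and 2.88 ± 0.24 (SE) in cko. In wt cells the levels were 49.8 and 52.6 CPM at 0h, then 62.3 and 50.1 CPM after 6h and 464 and 467 CPM after 27h. The wt libraries of 0h and 6h overlapped, and the 6h log2 fold change was 0.13 ± 0.21 (SE), with 0.32 in lane 7 and -0.07 in lane 8. Without wt 6h replicate 1 it was -0.03. Both wt libraries at 27h stood above every other library. At 6h, dbko cells exceeded wt cells by 2.44 ± 0.22 (SE) and cko cells by 1.96 ± 0.21 (SE) on the log2 scale.

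Before culture the order of Hmox1 was different. The cko libraries, at 12.1 and 9.15 CPM, were the lowest of all 14, and the log2 fold change of cko against wt at 0h was -2.27. The dbko libraries stood between cko and wt without overlapping either, and exceeded cko by 1.59 ± 0.25 (SE) on the log2 scale. Against wt, the log2 fold change of dbko at 0h was -0.69 ± 0.22 (SE). The macrophage markers were also lower in cko cells before culture, at 67.8 and 61.2 CPM against 277 and 274 CPM in wt cells, and their part in the Hmox1 difference was not tested. In cko cells the marker sum was 38.0 and 38.2 CPM at 6h, against 67.8 and 61.2 CPM at 0h, while Hmox1 was higher at 6h. In wt cells it was 277 and 274 CPM at 0h, then 60.2 and 60.8 CPM after 6h and 110 and 115 CPM after 27h, while Hmox1 at 27h was above both earlier times; from 6h to 27h both were higher. In dbko replicate 2 the sum was 144 CPM at 6h, against 221 CPM at 0h, while Hmox1 was at 244 CPM at 6h, against 25.9 CPM at 0h. In replicate 1 both were higher at 6h, the sum at 456 CPM against 409 CPM at 0h and Hmox1 at 365 CPM against 37.8 CPM at 0h.

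**Figure D2:**
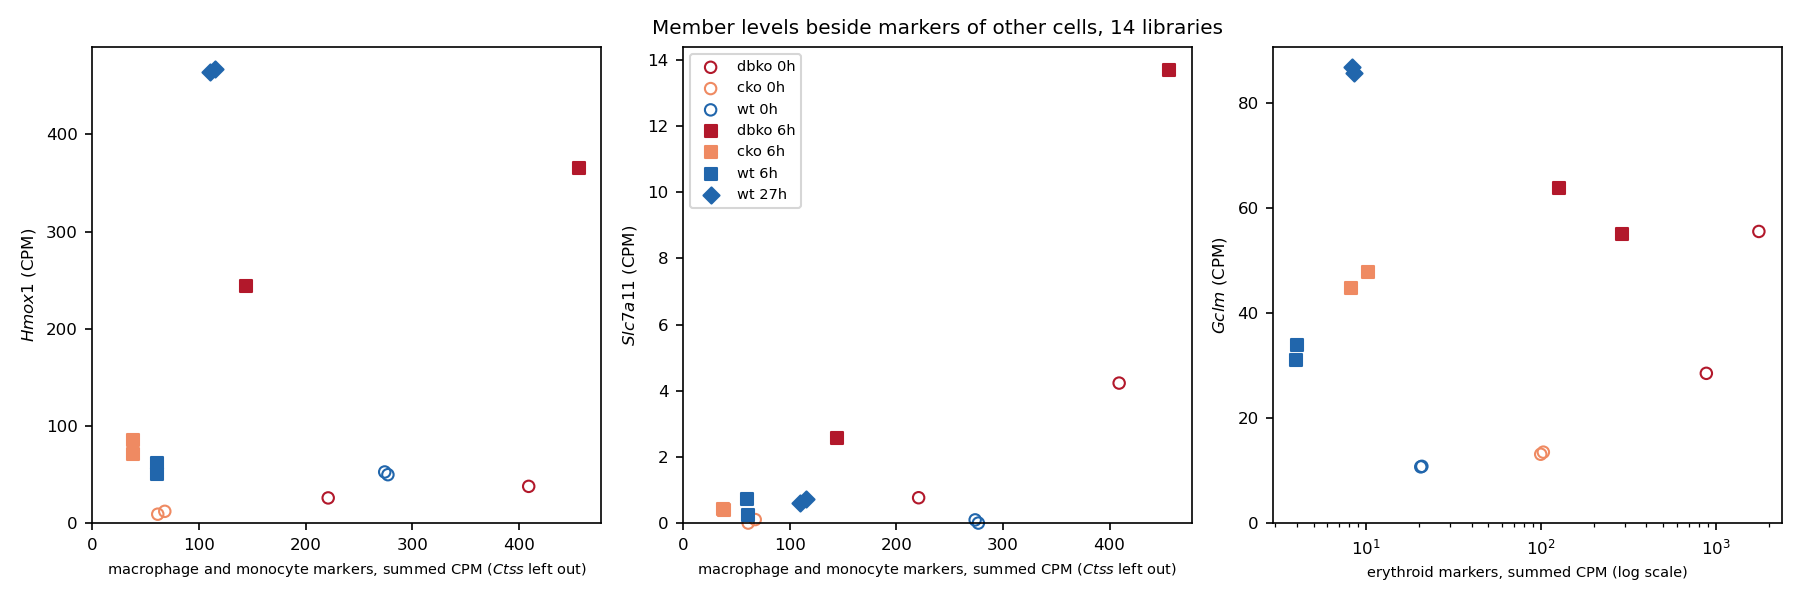
Levels of Hmox1, Slc7a11 and Gclm (CPM, vertical axes) in the 14 libraries against the summed CPM of 21 macrophage and monocyte markers (linear axes) or of 17 erythroid markers (log axis), with colour for genotype and shape for time. Hmox1 was highest in the wt libraries at 27h, where the macrophage markers summed to 110 and 115 CPM, whereas the highest Slc7a11 level, 13.7 CPM, came from the dbko library with the highest sum, 456 CPM.

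The quinone reductase gene Nqo1 (ENSMUSG00000003849, chromosome 8, 107388225 to 107403206, minus strand) is a standard readout of NRF2 activity. In dbko cells it was at 15.9 and 11.9 CPM at 6h, against 7.23 and 3.16 CPM at 0h. The cko libraries had 3.25 and 3.02 CPM at 6h, against 0.741 and 0.597 CPM at 0h. Nqo1 was near the detection limit in wt cells before culture, at 0.104 and 0.194 CPM, which is 1 and 2 counts, and reached 1.65 and 1.27 CPM after 6h and 23.4 and 15.8 CPM after 27h. At both 0h and 6h the dbko libraries were above the cko libraries and the cko libraries above the wt libraries, with no overlap. Replicate 1 was the higher of each dbko pair, as it was for the macrophage and erythroid markers. The part of these markers in the Nqo1 level was not tested. Over 6h Nqo1 rose by 1.42 ± 0.33 in dbko (SE, adjusted p = 0.0049) and by 2.22 ± 0.48 in cko (SE, adjusted p = 0.00255) on the log2 scale, and in wt, where the adjusted p was 0.00256, the ratio of summed CPM was 9.65, with a 95% counting interval of 3.03 to 49.2. Fitted on its 4 libraries alone, the dbko change had an adjusted p of 0.0981. On the log2 scale that change was 2.12 without dbko 0h replicate 1 and 0.94 without dbko 0h replicate 2. The dbko cells exceeded wt cells at 6h by 3.25 ± 0.38 (SE, adjusted p = 0.000128) and cko cells at 6h by 2.14 ± 0.35 (SE, adjusted p = 0.00243). Before culture they exceeded cko cells by 2.94 ± 0.46 (SE, adjusted p = 0.00203), and the ratio to wt cells was 34.6 (counting interval 11.6 to 171, adjusted p = 0.000184). Without dbko 0h replicate 1 the log2 difference from cko cells was 2.19, and that from wt cells was 4.29, against 5.01 with it.

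Glutathione synthesis starts with glutamate cysteine ligase, whose catalytic subunit is encoded by Gclc (ENSMUSG00000032350, chromosome 9, 77754535 to 77794485, plus strand) and whose modifier subunit is encoded by Gclm (ENSMUSG00000028124, chromosome 3, 122245557 to 122270732, plus strand). Gclc rose over 6h in all 3 genotypes. It was at 335 and 458 CPM in dbko cells at 6h, against 117 and 89.4 CPM at 0h. In cko cells it was at 345 and 316 CPM at 6h, against 80.1 and 76.6 CPM at 0h. Wt cells had 52.4 and 56.0 CPM at 0h, then 262 and 256 CPM after 6h and 238 and 242 CPM after 27h. The log2 fold change over 6h was 1.94 ± 0.16 in dbko (SE, adjusted p = 2.02e-06), 2.08 ± 0.16 in cko (SE, adjusted p = 1.21e-06) and 2.26 ± 0.16 in wt (SE, adjusted p = 6.36e-07). Gclc was the one NRF2 target of the 8 whose wt libraries at 27h all stood below those at 6h, by a log2 fold change of -0.11 between the groups. Before culture dbko cells exceeded wt cells by 0.93 ± 0.16 on the log2 scale (SE, adjusted p = 0.00217), and at 6h by 0.61 ± 0.15 (SE, adjusted p = 0.0103). The call at 6h ended without wt 6h replicate 1 (adjusted p = 0.064), wt 6h replicate 2 (0.0791) or dbko 6h replicate 2 (0.0606) and when the 2 groups were fitted alone (0.0756).

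Gclm rose over 6h in cko cells, where it was at 44.8 and 47.8 CPM at 6h, against 13.1 and 13.5 CPM at 0h. In wt cells it was at 10.7 and 10.8 CPM at 0h, then 33.9 and 31.1 CPM after 6h and 86.8 and 85.6 CPM after 27h. The dbko libraries were at 55.0 and 63.7 CPM at 6h, against 55.5 and 28.5 CPM at 0h. The dbko times overlapped, and replicate 1 was at the 6h level before culture already. The log2 fold change over 6h was 1.80 ± 0.24 in cko (SE, adjusted p = 9.58e-05) and 1.59 ± 0.24 in wt (SE, adjusted p = 0.000251), whereas in dbko it was 0.50 ± 0.22 (SE) and missed the threshold (adjusted p = 0.0875). In dbko the lanes differed, with -0.01 in lane 7 and 1.16 in lane 8, and without dbko 0h replicate 1 the value was 1.04 with an adjusted p of 0.000149. Before culture dbko cells exceeded wt cells by 1.96 ± 0.24 (SE, adjusted p = 0.000264) and cko cells by 1.66 ± 0.24 (SE, adjusted p = 0.00131), and at 6h they exceeded wt cells by 0.87 ± 0.22 (SE, adjusted p = 0.0127). Without dbko 0h replicate 1 the difference from cko cells before culture was 1.06. The difference from wt cells before culture had an adjusted p of 0.0527 when the 2 groups were fitted alone, and that at 6h had 0.0617 when wt 6h replicate 1 was left out and 0.0992 when wt 6h replicate 2 was. The erythroid markers followed the dbko libraries before culture, with 1760 CPM in replicate 1 and 881 CPM in replicate 2, and their part in the Gclm level was not tested.

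The cystine importer gene Slc7a11 (ENSMUSG00000027737, chromosome 3, 49892526 to 50443614, minus strand), which supplies cysteine for glutathione, was detected mainly in dbko cells. It was at 13.7 and 2.58 CPM in dbko cells at 6h, against 4.23 and 0.766 CPM at 0h. In cko cells it was at 0.440 and 0.409 CPM at 6h, against 1 count in replicate 1 and 0 in replicate 2 at 0h. Wt libraries had 0 and 1 count at 0h, then 0.732 and 0.255 CPM after 6h and 0.595 and 0.719 CPM after 27h. In CPM every dbko library was above every cko and wt library, and replicate 1 was the higher of each dbko pair. The lowest of them, dbko 0h replicate 2 at 0.766 CPM, had 8 counts. In counts it was not apart from wt 6h replicate 1, with 8, and wt 27h replicate 2, with 9. The gene passed the filter on low counts through its dbko libraries, 3 of which reached the minimum of 0.895 CPM, so its calls in dbko are not counted as support. At 6h dbko cells exceeded wt cells by 4.03 ± 0.94 (SE, adjusted p = 0.01) and cko cells by 4.22 ± 0.96 (SE, adjusted p = 0.0156) on the log2 scale, and without dbko 6h replicate 1 by 2.38 and 2.58. Without dbko 6h replicate 2 these were 4.78 and 4.97, and without wt 6h replicate 1 the first was 4.93. The call against wt ended without dbko 6h replicate 1 (adjusted p = 0.0703), without wt 6h replicate 2 (0.1) and on the 2 groups alone (0.0717), and that against cko ended without any one of its 4 libraries except dbko 6h replicate 2 (0.0994 to 0.108) and on the 2 groups alone (0.0899). Before culture the ratio of dbko to wt cells was 50.1 (95% counting interval 8.61 to 2020, adjusted p = 0.041) and that of dbko to cko cells 49.0 (8.43 to 1970, adjusted p = 0.0491), and both calls ended without dbko 0h replicate 1 (adjusted p = 0.323 against wt and 0.438 against cko) or without either 0h library of wt (0.17 and 0.229) or cko (0.182 and 0.278). The macrophage markers in dbko were also highest in replicate 1, and their part in these differences was not tested.

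Thioredoxin reductase 1, encoded by Txnrd1 (ENSMUSG00000020250, chromosome 10, 82833951 to 82897712, plus strand), keeps thioredoxin reduced with electrons from NADPH. It rose over 6h in every genotype. In dbko cells it was at 297 and 407 CPM at 6h, against 129 and 77.3 CPM at 0h. The cko libraries had 251 and 264 CPM at 6h, against 77.5 and 73.8 CPM at 0h. Wt cells had 80.5 and 82.4 CPM at 0h, then 197 and 192 CPM after 6h and 397 and 399 CPM after 27h. At 6h the genotypes did not overlap, with dbko highest and wt lowest, and wt cells at 27h overlapped dbko cells at 6h. The log2 fold change over 6h was 1.77 ± 0.20 in dbko (SE, adjusted p = 3.1e-05), 1.77 ± 0.20 in cko (SE, adjusted p = 3.11e-05) and 1.26 ± 0.20 in wt (SE, adjusted p = 0.000303). Without replicate 1 at both times the dbko value was 2.38, and without replicate 2 at both times it was 1.2. At 6h dbko cells exceeded wt cells by 0.85 ± 0.19 (SE, adjusted p = 0.00752), a call that ended without wt 6h replicate 1 (adjusted p = 0.0519) or wt 6h replicate 2 (0.0635). Before culture the log2 fold change of dbko against wt was 0.34 ± 0.20 (SE, adjusted p = 0.282), with 0.68 in lane 7 and -0.09 in lane 8. It was -0.08 without dbko 0h replicate 1, and 0.66 with an adjusted p of 0.0106 without dbko 0h replicate 2.

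Sulfiredoxin, encoded by Srxn1 (ENSMUSG00000032802, chromosome 2, 152105516 to 152111376, plus strand), repairs overoxidised peroxiredoxins. It was at 21.0 and 7.97 CPM in dbko cells at 6h, against 3.19 and 2.20 CPM at 0h. In cko cells it was at 0.967 and 1.14 CPM at 6h, against 0.106 and 0.298 CPM at 0h. Wt cells had 1 count per library at 0h, then 0.458 and 0.594 CPM after 6h and 1.02 and 1.76 CPM after 27h. All 4 dbko libraries were above every cko and wt library. Over 6h Srxn1 rose by 2.42 ± 0.44 in dbko (SE, adjusted p = 0.000855) and by 2.31 ± 0.77 in cko (SE, adjusted p = 0.0283) on the log2 scale, and the cko call ended without any one of its 4 libraries (adjusted p = 0.0595 to 0.166, with a value of 3.19 without cko 0h replicate 2). Without dbko 6h replicate 1 the dbko value was 1.56. In wt the ratio over 6h was 5.27, with a 95% counting interval of 1.17 to 48.4 and an adjusted p of 0.0765. At 6h dbko cells exceeded wt cells by 4.75 ± 0.53 (SE, adjusted p = 8.33e-05) and cko cells by 3.76 ± 0.48 (SE, adjusted p = 0.00057), and without dbko 6h replicate 1 by 3.89 and 2.90. Before culture the ratio of dbko to wt cells was 26.9 (counting interval 7.12 to 228, adjusted p = 0.00217), and dbko cells exceeded cko cells by 3.65 ± 0.69 on the log2 scale (SE, adjusted p = 0.00599), with adjusted p-values of 0.0534 to 0.0882 without cko 0h replicate 1, cko 0h replicate 2 or dbko 0h replicate 1 and a value of 4.53 without cko 0h replicate 2. Like Slc7a11, Srxn1 was higher in replicate 1 of each dbko pair, as were the macrophage markers, and their part was not tested.

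Osgin1 (ENSMUSG00000074063, chromosome 8, 119434124 to 119446256, plus strand), an oxidative stress induced growth inhibitor, was the one target of the 8 that was lower at 6h than at 0h in wt cells. In dbko cells it was at 11.3 and 22.4 CPM at 6h, against 7.61 and 10.3 CPM at 0h. In cko cells it was at 9.67 and 9.07 CPM at 6h, against 12.4 and 10.9 CPM at 0h. Wt cells had 15.9 and 17.0 CPM at 0h, then 3.94 and 3.06 CPM after 6h and 4.93 and 5.67 CPM after 27h. The wt libraries at 6h were the lowest of all 14, and dbko replicate 2 at 6h was the highest. The log2 fold change over 6h was 0.91 ± 0.28 in dbko (SE), -0.31 ± 0.28 in cko (SE) and -2.24 ± 0.30 in wt (SE). At 6h dbko cells exceeded wt cells by 2.27 ± 0.30 (SE) and cko cells exceeded wt cells by 1.42 on the log2 scale.

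The factor genes had smaller changes over 6h than the targets that were called. Nfe2l2 (ENSMUSG00000015839, chromosome 2, 75675513 to 75704641, minus strand) was at 189 and 213 CPM in dbko cells at 6h, against 221 and 239 CPM at 0h. It was at 190 and 204 CPM in cko cells at 6h, against 257 and 270 CPM at 0h. In wt cells it was at 235 and 246 CPM at 0h, then 157 and 176 CPM after 6h and 69.3 and 62.8 CPM after 27h. The NRF2 gene was thus lowest in the wt libraries at 27h, where Hmox1, Nqo1, Gclm and Txnrd1 were highest on average. Over 6h it fell in wt by 0.53 ± 0.11 (SE, adjusted p = 0.00171) and in cko by 0.42 ± 0.11 (SE, adjusted p = 0.008), and the dbko log2 fold change was -0.19 ± 0.11 (SE, adjusted p = 0.173). The cko call ended without cko 6h replicate 1 (adjusted p = 0.051) or cko 0h replicate 2 (0.0607).

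Bach1 (ENSMUSG00000025612, chromosome 16, 87698945 to 87733346, plus strand), the heme-sensing repressor, was at 92.4 and 132 CPM in dbko cells at 6h, against 103 and 116 CPM at 0h. It was at 130 and 138 CPM in cko cells at 6h, against 167 and 179 CPM at 0h, and the log2 fold change of -0.37 ± 0.14 (SE) missed the threshold (adjusted p = 0.0511), passing it under each of the 5 alternatives that kept every library (adjusted p = 0.0148 to 0.0402) but not without any one of its 4 libraries (0.092 to 0.215). Wt cells had 131 and 121 CPM at 0h, then 124 and 124 CPM after 6h and 75.8 and 77.1 CPM after 27h. The cko libraries at 0h were the highest of all and the wt libraries at 27h the lowest. Before culture dbko cells were lower than cko cells by a log2 fold change of -0.66 ± 0.14 (SE, adjusted p = 0.0125), a call that ended without cko 0h replicate 1 (adjusted p = 0.0716), cko 0h replicate 2 (0.122) or dbko 0h replicate 1 (0.106).

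**Figure D3:**
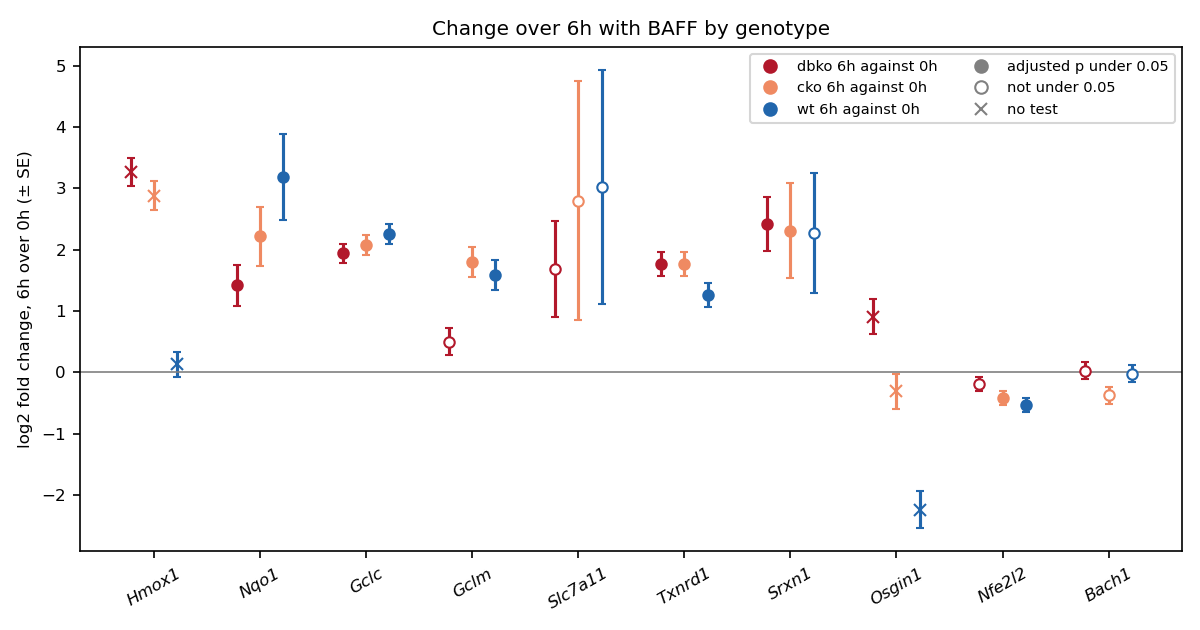
Log2 fold change of each gene at 6h with BAFF over 0h in dbko, cko and wt cells, with bars for 1 SE, filled where the adjusted p was under 0.05 and crosses where no test is given. Hmox1 had 3.26 in dbko and 2.88 in cko against 0.13 in wt, while Osgin1 had 0.91 in dbko and -0.31 in cko against -2.24 in wt; the cko and wt values of Slc7a11 rest on 1 count at 0h.

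Calls were counted over 7 of the genes, leaving out Hmox1 and Osgin1, which have no test, and Slc7a11, which passed the filter through dbko libraries. Over 6h in dbko cells 4 of the 7 rose and 0 were called lower (edgeR; 0 also at an unadjusted p under 0.05 and by DESeq2), where 19.3% of all genes tested were called higher and 20.3% lower. In cko cells 5 were called higher and 1 lower, where 21.8% of all genes tested were called higher and 20.1% lower. In wt cells 4 were called higher and 1 lower, where 22.6% of genes were called higher and 23.5% lower. Gclc, Txnrd1 and Nqo1 were called higher in each genotype. The median log2 fold change of the 7 genes was 1.42 in dbko, 1.80 in cko and 1.59 in wt, and that of all genes tested was 0.03, 0.05 and 0.00. The comparisons of the genotypes with one another share libraries with these: the 6h libraries of each genotype stand in both.

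Before culture, 4 of the 7 genes were called higher in dbko than in wt cells (Nqo1, Gclm, Gclc and Srxn1), where 7.1% of genes tested were called higher, and 0 were called lower (edgeR; 0 also at an unadjusted p under 0.05 and by DESeq2), where 4.55% were. All 17 erythroid markers and 2 of 21 macrophage markers were also called higher there, and 1 macrophage marker was called lower. The 21 counted here are those tested of the 22 listed, with Ctss kept, and so are not the 21 summed above. Against cko cells, dbko cells were called higher at Nqo1, Gclm and Srxn1 (background 6.63%) and lower at Bach1 (background 2.39%), with 17 of 17 erythroid and 13 of 21 macrophage markers higher and 1 macrophage marker lower. After 6h, 5 of the 7 genes were called higher in dbko than in wt cells (background 15.2%), the exceptions being Nfe2l2 and Bach1, as were 17 of 17 erythroid markers, with a median log2 fold change of 6.47, and 16 of 21 macrophage markers, with a median of 2.71. Against cko cells at 6h, 2 of the 7 genes were called higher in dbko cells (Nqo1 and Srxn1, background 8.77%), as were 17 of 17 erythroid and 17 of 21 macrophage markers, and 1 macrophage marker was called lower. At 6h 0 of the 7 were called lower in dbko than in wt or cko cells (edgeR; 0 also at an unadjusted p under 0.05 and by DESeq2; background 11.5% and 4.66%). The part of these other cells in the counts was not tested. The median log2 fold change of the 7 genes was 0.93 for dbko against wt at 0h and 0.85 at 6h, and those of all genes tested were 0.01 and 0.05. Both comparisons at a time use the same dbko libraries. In cko against wt cells, where the 10 genes are given no test, 0.918% of genes tested were called higher and 0.578% lower before culture, and 1.58% higher and 1.96% lower at 6h. The 6h response differed from that of wt for 13.8% of genes tested in dbko and 1.7% in cko, and here too no test is given for the 10 genes.

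**Figure D4:**
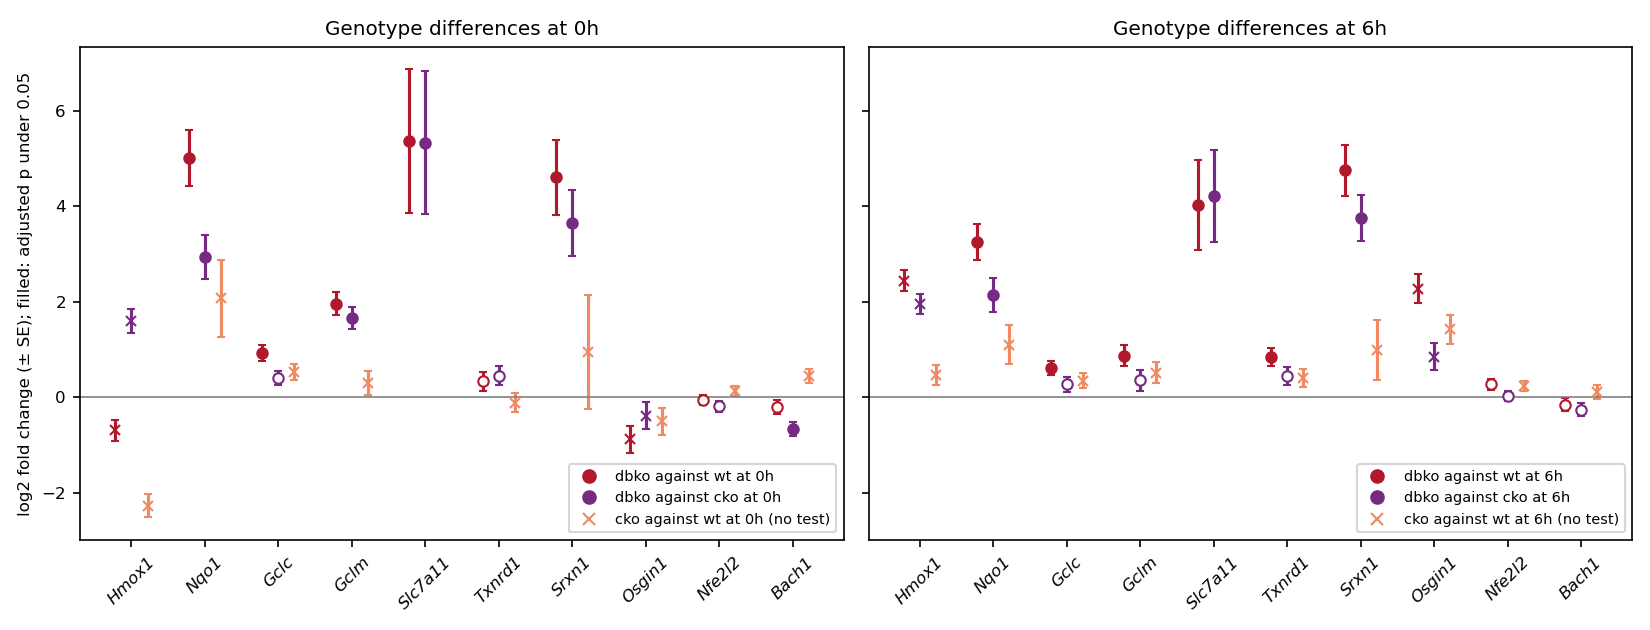
Log2 fold change of each gene in dbko cells over wt cells, dbko cells over cko cells and cko cells over wt cells, at 0h (left) and 6h (right), with bars for 1 SE. Circles are filled where the adjusted p was under 0.05, crosses mark values given with no test, and cko over wt is not drawn for Slc7a11; Hmox1 was at -0.69 in dbko over wt at 0h and at 2.44 at 6h, and Nfe2l2 stayed near 0 in each.

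The values of wt cells at 27h are a description, since the Hmox1 value there helped choose the genes. Against 6h, the log2 fold change at 27h was 3.74 for Nqo1, 3.05 for Hmox1, 1.41 for Gclm and 1.03 for Txnrd1, against -1.34 for Nfe2l2 and -0.70 for Bach1. Among heme and thioredoxin genes outside the set, the heme transporter gene Slc48a1 was at 33.7 and 34.7 CPM at 0h, then 44.9 and 49.8 CPM after 6h and 131 and 133 CPM after 27h. Thioredoxin itself, Txn1, was at 75.4 and 75.7, 103 and 114, and 360 and 343 CPM at those times.

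Promoter sequence was available for 8 of the 10 genes, in the RefSeq table of 250 bases upstream of annotated starts on GRCm38.p6. Hmox1 and Gclc had no entry. These windows were searched on both strands for the core of the antioxidant response element, TGACNNNGC, which stood in 3338 of 32851 promoter windows (10.2%), and among the 8 genes in windows of Nfe2l2, Gclm and Txnrd1. They were also searched for the heptamer TGAGTCA or its reverse complement TGACTCA, the core of the AP-1 element and of the longer elements bound by MAF pairs, which can overlap the first motif, as where TGACTCA is followed by GC. The heptamer, chosen after the windows were seen, stood in 1466 windows (4.46%), and among the 8 genes in those of Srxn1 and Osgin1. The windows given here are those of 2 genes that rose over 6h in cko and wt cells and hold the first motif, and of the 2 genes with the heptamer, of which Srxn1 rose in dbko and cko cells and Osgin1 was lower at 6h than at 0h in wt cells. They run 5′ to 3′ on the gene's strand, the plus strand in each, and end at the base before the start. Capitals mark the motifs.
Gclm, chr3:122245307-122245556: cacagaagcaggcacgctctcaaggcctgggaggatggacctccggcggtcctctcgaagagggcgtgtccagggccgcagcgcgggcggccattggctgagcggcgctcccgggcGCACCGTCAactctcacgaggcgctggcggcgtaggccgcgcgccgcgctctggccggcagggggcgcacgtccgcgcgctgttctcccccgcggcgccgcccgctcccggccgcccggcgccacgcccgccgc
Txnrd1, chr10:82858956-82859205: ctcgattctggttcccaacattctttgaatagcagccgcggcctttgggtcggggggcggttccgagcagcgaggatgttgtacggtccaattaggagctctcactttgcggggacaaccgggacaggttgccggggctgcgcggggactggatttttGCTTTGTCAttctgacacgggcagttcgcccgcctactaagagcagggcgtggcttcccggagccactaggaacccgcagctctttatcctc
Srxn1, chr2:152105274-152105523: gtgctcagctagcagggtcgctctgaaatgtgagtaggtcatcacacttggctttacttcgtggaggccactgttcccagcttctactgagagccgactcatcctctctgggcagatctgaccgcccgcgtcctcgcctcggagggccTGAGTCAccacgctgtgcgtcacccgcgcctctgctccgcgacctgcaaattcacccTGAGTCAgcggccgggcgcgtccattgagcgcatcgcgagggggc
Osgin1, chr8:119436897-119437146: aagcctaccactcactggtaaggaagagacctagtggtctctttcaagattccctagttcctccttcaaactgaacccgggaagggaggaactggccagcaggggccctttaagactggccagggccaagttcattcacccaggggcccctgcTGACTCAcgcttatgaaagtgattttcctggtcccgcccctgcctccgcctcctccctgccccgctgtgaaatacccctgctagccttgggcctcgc
In Gclm the motif lay 134 to 126 bases before the start, and in this one of 3 Txnrd1 windows 92 to 84 bases before it, in both on the minus strand. In Srxn1 the heptamers lay 102 to 96 and 45 to 39 bases before the start, and in Osgin1 97 to 91 bases before it. A match describes these letters and does not show binding.

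Genes that regulate NRF2 and BACH proteins were called in both directions. Of 14 listed and tested, 4 were higher and 3 lower at 6h than at 0h in dbko cells, 4 and 3 in cko cells, and 1 and 3 in wt cells. Most of these counts are near the shares of all genes tested, which were 19.3% higher and 20.3% lower in dbko, 21.8% and 20.1% in cko, and 22.6% and 23.5% in wt. The NRF2 inhibitor gene Keap1 was at 77.2 and 78.9 CPM in dbko cells at 6h, against 42.0 and 40.5 CPM at 0h, a log2 fold change of 0.92 (adjusted p = 2.31e-05), and it rose by 0.82 in cko cells (adjusted p = 5.49e-05), while the wt value was 0.20 (adjusted p = 0.121). Mafk, a small MAF partner, fell over 6h by 1.01 in dbko (adjusted p = 0.000499), by 1.29 in cko (adjusted p = 7.71e-05) and by 1.57 in wt (adjusted p = 1.69e-05) on the log2 scale. Nfe2l1, the NRF2 relative that controls proteasome genes, rose in each genotype, by 0.95 in dbko (adjusted p = 4.2e-05), 0.65 in cko (adjusted p = 0.000571) and 1.10 in wt (adjusted p = 1.19e-05). Bach2 was at 416 and 419 CPM in dbko cells at 6h, against 280 and 383 CPM at 0h, and in wt cells at 485 and 428 CPM at 0h, then 505 and 460 CPM after 6h and 279 and 278 CPM after 27h.

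Of 10 tested genes for NADPH supply (11 listed), which feeds both thioredoxin and glutathione reductases, 6 rose and 1 fell over 6h in dbko, 5 rose and 1 fell in wt, and 7 rose in cko, with 0 lower there by edgeR, at an unadjusted p under 0.05 or by DESeq2. Of all genes tested, 19.3% rose and 20.3% fell in dbko, 21.8% and 20.1% in cko, and 22.6% and 23.5% in wt, which also bear on the lists that follow. The median log2 fold change of the NADPH list was 0.53 in dbko, 0.64 in cko and 0.51 in wt. Pgd, of the pentose phosphate pathway, rose by 1.16 in dbko (adjusted p = 1.72e-05), 1.08 in cko (adjusted p = 2.73e-05) and 0.77 in wt (adjusted p = 0.00027), and Mthfd2, of the mitochondrial folate pathway, by 1.70 in dbko (adjusted p = 6.81e-05), 1.67 in cko (adjusted p = 8.41e-05) and 1.80 in wt (adjusted p = 4.19e-05). Of 28 genes for glutathione synthesis and use, 9 rose and 7 fell in dbko, 9 and 7 in cko, and 8 and 6 in wt. Glutathione reductase, Gsr, rose by 1.93 in cko (adjusted p = 0.000407) and 1.96 in wt (adjusted p = 0.000405), and the glutathione transferase gene Gstm1 by 1.99 in dbko (adjusted p = 5.98e-06), 1.40 in cko (adjusted p = 8.34e-05) and 1.03 in wt (adjusted p = 0.000878). Of 17 thioredoxin and peroxiredoxin genes, 3 rose and 6 fell in dbko, 4 and 5 in cko, and 3 and 6 in wt, with the thioredoxin inhibitor gene Txnip falling by 1.99 in dbko (adjusted p = 1.23e-07), 1.80 in cko (adjusted p = 1.83e-07) and 1.68 in wt (adjusted p = 2.76e-07). Of 23 other tested NRF2 targets and antioxidant enzymes (26 listed), 7 rose in dbko, 7 rose and 2 fell in cko, and 4 rose and 7 fell in wt.

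At 6h, 12 of the 28 glutathione genes were higher and 2 lower in dbko than in wt cells, as were 5 and 1 of the 17 thioredoxin genes and 13 and 1 of the 23 other NRF2 targets and antioxidant enzymes, against 15.2% and 11.5% of all genes tested. The list medians were 0.47, 0.27 and 0.44 on the log2 scale, and that of all genes tested was 0.05. Gstm1 was at 23.3 and 30.2 CPM in dbko cells, against 10.5 and 10.1 CPM in wt cells (log2 fold change 1.38, adjusted p = 0.00022). Prdx1, a peroxiredoxin and NRF2 target, was at 284 and 257 CPM in dbko cells, against 162 and 160 CPM in wt cells (0.75, adjusted p = 0.00646). The mitochondrial aldehyde dehydrogenase gene Aldh2 was at 470 and 333 CPM in dbko cells, against 159 and 161 CPM in wt cells (1.33, adjusted p = 0.000426). The exporter gene Abcc1 differed the other way, at 43.8 and 55.7 CPM in dbko cells, against 142 and 140 CPM in wt cells (-1.50, adjusted p = 9.93e-06). The macrophage markers were also higher in dbko cells at 6h, at 456 and 144 CPM against 60.2 and 60.8 CPM in wt cells, with 16 of 21 tested called higher, and their part in these counts was not tested. NRF2 and BACH regulators gave 2 higher and 3 lower of 14, and 2 of 10 NADPH genes were higher.

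Of 22 tested genes for heme and iron handling (23 listed), 6 rose and 11 fell over 6h in dbko cells, 5 and 4 in cko cells, and 6 and 5 in wt cells, where 19.3% and 20.3% of all genes tested did in dbko, 21.8% and 20.1% in cko, and 22.6% and 23.5% in wt. Erythroid markers also fell over 6h, 16 of 17 in dbko, 16 in cko and 7 in wt, and 0 rose. Their median log2 fold changes were -3.42, -3.97 and -2.62, and their part in the heme and iron changes was not tested. Biliverdin reductase B, Blvrb, fell in each genotype. It was at 26.1 and 21.3 CPM in dbko cells at 6h, against 116 and 86.7 CPM at 0h, and it fell by 2.10 in dbko (adjusted p = 1.73e-05), 1.60 in cko (adjusted p = 0.000132) and 2.25 in wt (adjusted p = 1.1e-05) on the log2 scale. The ferritin genes, which store the iron that heme oxygenase frees, rose in dbko, Fth1 by 0.53 (adjusted p = 0.0228) and Ftl1 by 0.81 (adjusted p = 0.00102). Changes of the ferritin genes over 6h in cko and wt cells are not given here. At 6h dbko cells exceeded wt cells in Fth1 by 0.69 (adjusted p = 0.01) and in Ftl1 by 0.76 (adjusted p = 0.00327). In that comparison 16 of 21 tested macrophage markers and 17 of 17 erythroid markers were also called higher and 0 lower (edgeR). Their part in the ferritin differences was not tested. Before culture 10 heme and iron genes were higher in dbko than in wt cells and 0 lower (edgeR; 0 also at an unadjusted p under 0.05 and by DESeq2; background 7.1% and 4.55%), among them the heme synthesis gene Fech, at 98.3 and 61.6 CPM in dbko against 25.2 and 24.0 CPM in wt. All 17 erythroid markers were called higher in that comparison as well, and their part in it was not tested.

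The levels of the 10 genes over the 14 libraries fell into few patterns, given here as Pearson correlations of log2 CPM over libraries that share genotype, time and lane, with no test. Nqo1 and Gclm had 0.95, Srxn1 and Slc7a11 0.93, Gclc and Txnrd1 0.91, and Hmox1 and Txnrd1 0.88. Hmox1 had -0.15 with Osgin1, -0.75 with Nfe2l2 and -0.81 with Bach1, and Nfe2l2 had 0.81 with Bach1. Among 8904 other genes averaging 3 or more in log2 CPM, those most like Hmox1 were Nup37 (0.96), Abcb8 (0.959), Arid3a (0.953), Ccnh (0.949) and Gtf2h3 (0.948). Those most like Txnrd1 were E2f6 (0.982), Vcp (0.977), Sf3a3 (0.975), Rnf5 (0.975) and Arl6ip4 (0.972).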

How the data were processed

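RNA-seq libraries were compared as raw read counts per Ensembl gene, which the authors deposited in 1 table per library. CASAVA 1.8.2 is named in the submitters' processing notes; the aligner, counter, genome build, annotation and strand setting are not stated there. Rows of no gene (no feature, 5.21 to 11.46% of the table; ambiguous, 0.41 to 0.49%; multiple alignments, 38.77 to 49.85%) were left out. Symbols, positions and exon lengths came from GENCODE M21 on GRCm38, which may differ from the authors' build, and matched 37607 of 39179 IDs. Counts of overlapping or antisense genes cannot be told apart without strand.

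One edgeR 4.0.16 quasi-likelihood fit (R 4.3.3, TMM, filterByExpr by group) covered all 7 groups, with 7 residual degrees of freedom, and p-values were adjusted by the Benjamini-Hochberg method over 12630 genes. Ratios against groups with 1 to 3 counts carry exact 95% intervals for counting error only. Alternatives were DESeq2 1.42.0 and its size factors, no filter, the compared groups alone, a lane block and leaving out libraries. Replicate numbers follow the sequencing lane in the labels. Deviations of same-numbered libraries correlated above 0.1 in 4 of 21 group pairs, from -0.17 to 0.483 over all pairs. The highest value was that of dbko at 0h and dbko at 6h, and the next was 0.158, of cko and wt at 6h. The main fit did not pair these libraries, and the pairing rests on the lane given in the labels. The genes, lists and tests were chosen with earlier results of these data known; Hmox1 and Osgin1 are given no p-value. Named list genes are those with the smallest adjusted p (at most 4 per list and comparison) and 7 fixed names (Keap1, Bach2, Mafk, Fth1, Ftl1, Blvrb, Prdx1).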

Additional observations from a re-analysis of the deposited data

Results flagged for a closer look

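Differences of the 6h minus 0h changes between genotypes, in a single fit, are given here for 3 of the 10 genes. The 3 were picked at an adjusted p under 0.05 (edgeR), which 13.8% of genes tested passed in dbko and 1.7% in cko. This picking is not a test result. These differences may have been among the results by which Hmox1 and Osgin1 were chosen, so they are values only. For Hmox1 the 6h change exceeded that of wt by 3.12 in dbko and by 2.75 in cko on the log2 scale. For Osgin1 it exceeded that of wt by 3.15 in dbko and by 1.92 in cko, where the wt change was -2.24. For Gclm the dbko change minus the wt change was -1.09, with dbko replicate 1 already at 55.5 CPM at 0h, against 28.5 CPM in dbko replicate 2. The 6h change of the macrophage and monocyte markers also exceeded that of wt in the median, by 2.71 in dbko and 1.73 in cko. Among 21 tested, 10 were called higher and 0 lower in dbko, and 0 were called in cko (edgeR). Their part in the Hmox1 differences was not tested.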

How the results depend on the processing

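Of 358 values of single genes recomputed with every library kept, 339 kept their call and direction, and of 382 with a library left out, 313 did; 4 changed direction, of which 0 were called. Those were Hmox1 in wt at 6h (-0.03 without wt 6h replicate 1, and up to 0.28), Gclm in dbko at 6h (-0.01 without dbko replicate 2 at both times, and up to 1.15) and Txnrd1 in dbko against wt at 0h (-0.08 without dbko replicate 1, at 0h or at both times, and up to 0.66). The counts that follow, of adjusted p under 0.05 among all 10 genes, include Slc7a11 and the genes and comparisons given no test above. They describe the processing only and are not counted as support. Shares of all genes tested in the main fit are given above, except at 27h. At 6h against 0h the count was 6 in dbko, with 4 on the groups alone, 8 with no filter and 6 to 8 with libraries left out; 7 in cko, with 5 to 6 with a library left out and 8 or 9 with all kept; and 6 in wt, with 8 unfiltered. For cko against wt at 0h the count was 1, against 3 with no filter, 4 on the 2 groups alone and 2 under DESeq2. For dbko against wt at 0h it was 5, with 3 on the groups alone and 4 to 9 with libraries left out; for dbko against cko at 0h 6, with 3 to 9; for cko against wt at 6h 1, with 4 unfiltered and 0 with any library left out; for dbko against wt at 6h 8, with 4 to 9; for dbko against cko at 6h 4, with 3 to 8; and for the 6h response of cko against wt 2, with 1. Fits with fewer libraries had fewer residual degrees of freedom; the cause of the other shifts was not tested. With the replicate block, that is lane, the counts of called genes were 7 in dbko and 8 in cko at 6h against 0h, 10 in wt at 27h against 0h and 6 in dbko against wt at 0h, adding Slc7a11, Bach1, Slc7a11 and Hmox1, and each other comparison kept its count. In the main fit of wt at 27h against 0h, 2909 of all 12630 genes tested were called higher and 3103 lower. TMM and size factor scaling differed by at most 0.052 on the log2 scale. Depth limits Slc7a11 and Srxn1, at 1 count per library or less in wt at 0h.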

Other observations

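Of 7 B cell and myeloid genes known to be linked to BACH2 and BACH1, 1 rose and 3 fell over 6h in dbko cells, 1 and 3 in cko cells and 1 and 4 in wt cells, where of all genes tested 19.3% rose and 20.3% fell in dbko, 21.8% and 20.1% in cko, and 22.6% and 23.5% in wt. Prdm1, the plasma cell factor gene that BACH2 represses, rose by 1.77 ± 0.26 in dbko (SE, adjusted p = 0.000256, edgeR), 1.32 ± 0.25 in cko (SE, adjusted p = 0.00131) and 1.61 ± 0.26 in wt (SE, adjusted p = 0.000374) on the log2 scale. It was at 34.0 and 65.7 CPM in dbko cells at 6h, against 11.8 and 17.4 CPM at 0h. Irf4, a B cell activation factor gene, fell by 1.54 ± 0.18 in dbko (SE, adjusted p = 3.17e-05), 2.08 ± 0.18 in cko (SE, adjusted p = 3.52e-06) and 1.04 ± 0.17 in wt (SE, adjusted p = 0.000438).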
